A study of Mus musculus with 4 samples.

Results

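Interleukin receptors are surface chains through which leukocytes sense the secreted interleukins, and most of them work as pairs of a private ligand-binding chain and a shared signalling chain. Type I and type II cytokine receptors signal through JAK kinases and STAT transcription factors, receptors of the IL-1 family signal through an intracellular TIR domain and the adaptor MYD88, and IL-17 receptors signal through the adaptor encoded by Traf3ip2. A few members are decoys that bind ligand without signalling. In the spleen, the common gamma chain cytokines sustain T, B and NK cells, and the IL-1 family receptors are carried by myeloid cells, basophils, mast cells and some T cells.

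The genes described were those whose mouse symbol began with Il, a number and r, leaving out Il1rn, Il2ra and Il5ra; 37 of the 23763 genes in the deposited table met this. RNA was from spleens of C57BL/6J mice at baseline, with 2 KLHL3 knock-in (KLHL3-KI) and 2 wild-type (WT) libraries, made after depletion of ribosomal RNA with a directional kit. KLHL3 is the substrate adaptor of a cullin-3 ubiquitin ligase. The labels give neither the knock-in allele nor the age or sex, and do not say whether each library came from its own animal, so p-values measure only the spread between these libraries, which may be technical.

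Values are scaled read counts, that is reads divided by 1 factor per library set by the authors. The libraries held 9586677 and 10933023 reads for KLHL3-KI replicates 1 and 2, against 8535483 and 8975415 reads for WT replicates 1 and 2. Klhl3 itself was low, at 2.53 and 1.36 in KLHL3-KI spleen and 3.02 and 4.67 in WT spleen, and did not pass the test (limma adjusted p = 0.0895). The data are from whole spleen, where fewer cells of a type and less RNA per cell cannot be told apart.

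Of the 37 receptor genes, 30 had a mean of at least 1 over the 4 libraries and were tested. With limma (log2(value + 1) scale, fitted over all 16970 tested genes, Benjamini-Hochberg adjusted p under 0.05), 2 of the 30 were higher in KLHL3-KI spleen, where 15.2% of all tested genes were. Another 7 were lower, where 7.56% of all tested genes were, and 22.8% of all tested genes passed in either direction. The higher pair were Il1rl1, the receptor for IL-33, and Il1r2, the IL-1 decoy receptor. The lower genes were Il27ra, Il21r, Il17ra, Il4ra, Il2rb, Il2rg and Il6ra. The median log2 fold change (KLHL3-KI minus WT) was -0.18 over the tested receptor genes and -0.01 over all tested genes. The 37 genes together took 0.113% and 0.112% of the reads of the KLHL3-KI libraries, against 0.156% and 0.152% of those of the WT libraries. Such a share sets the library totals equal, which the deposited scaling does not. The deposited values of all genes summed to 1055790 and 1064720 in the KLHL3-KI libraries and 954916 and 931582 in the WT libraries.

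The values of 21 of the 30 separated the groups, with both KLHL3-KI libraries above both WT libraries for 6 genes and below them for 15. Over all tested genes 64.7% were so separated, 32.8% upwards and 31.9% downwards. The split of calls over all tested genes moved with the scaling, with 2583 higher and 1283 lower as deposited, 2050 and 2372 after quantile normalization, and 1916 and 3130 with equal totals. Equal totals moved the median of all tested genes to -0.16 and that of the receptor genes to -0.34, and under that scaling 2 receptor genes were higher and 11 were lower, with Il7r, Il10ra, Il18r1 and Il10rb added.

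**Figure D1:**
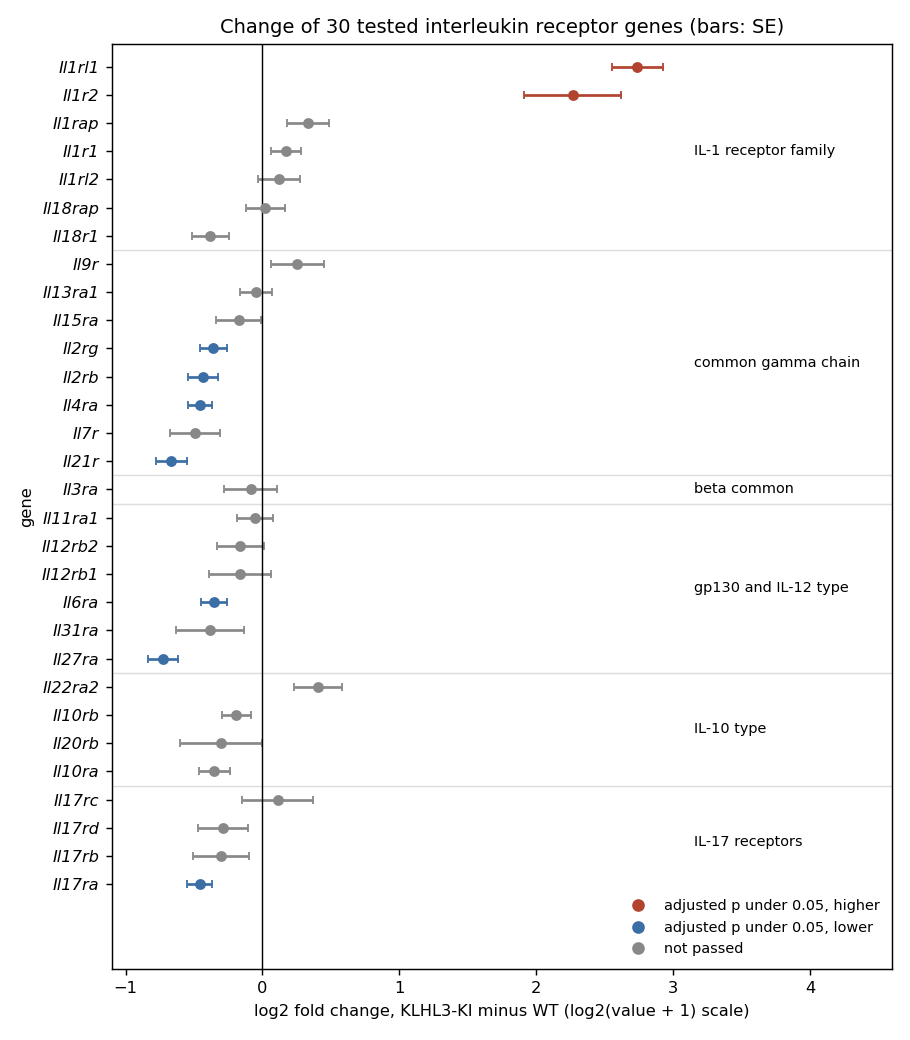
Log2 fold change of the 30 tested interleukin receptor genes, KLHL3-KI minus WT, on the log2(value + 1) scale, grouped by receptor family; points are limma estimates from 2 libraries per group and bars are standard errors. Il1rl1 at 2.74 and Il1r2 at 2.26 stand to the right, and the other 28 lie between -0.73 and 0.40.

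The promoters of Il1rl1 and Il1r2 are shown because these genes had the largest changes among the receptors, and those of Il4ra and Il21r because they are neighbours that were both lower. Mouse Il1rl1 is known to be transcribed from a distal and a proximal promoter, and the deposited values do not separate transcripts by start. Each run is the 250 bases before an annotated start, 5′ to 3′ on the plus strand, from RefSeq (build GRCm38.p6, while the submitters' processing notes name GRCm39). Capitals mark GATA elements, searched on both strands as the letters AGATAA, the letters TGATAA, the letters AGATAG and the letters TGATAG.
Il1rl1, first window, chr1:40429320-40429569: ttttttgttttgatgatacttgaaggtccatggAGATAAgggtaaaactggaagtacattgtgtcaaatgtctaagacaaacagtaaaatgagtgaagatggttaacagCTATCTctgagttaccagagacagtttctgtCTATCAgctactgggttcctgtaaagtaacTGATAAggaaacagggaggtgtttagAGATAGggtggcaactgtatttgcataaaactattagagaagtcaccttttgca
Il1rl1, second window, chr1:40439379-40439628: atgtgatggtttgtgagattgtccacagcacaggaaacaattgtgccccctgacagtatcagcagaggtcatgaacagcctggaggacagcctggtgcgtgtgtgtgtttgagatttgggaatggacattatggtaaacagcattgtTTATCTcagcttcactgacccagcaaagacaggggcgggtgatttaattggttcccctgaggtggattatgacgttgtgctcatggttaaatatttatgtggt
Il1r2, chr1:40085843-40086092: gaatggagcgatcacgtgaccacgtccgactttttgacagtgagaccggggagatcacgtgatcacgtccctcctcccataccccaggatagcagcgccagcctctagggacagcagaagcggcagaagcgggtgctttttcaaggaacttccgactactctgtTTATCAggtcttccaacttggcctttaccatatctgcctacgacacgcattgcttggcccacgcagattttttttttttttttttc
Il4ra, chr7:125552021-125552270: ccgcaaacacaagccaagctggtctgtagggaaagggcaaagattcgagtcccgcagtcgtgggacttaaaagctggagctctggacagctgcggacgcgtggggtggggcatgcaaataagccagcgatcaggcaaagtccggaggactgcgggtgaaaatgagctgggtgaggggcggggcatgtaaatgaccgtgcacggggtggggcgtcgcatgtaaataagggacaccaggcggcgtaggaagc
Il21r, chr7:125603179-125603428: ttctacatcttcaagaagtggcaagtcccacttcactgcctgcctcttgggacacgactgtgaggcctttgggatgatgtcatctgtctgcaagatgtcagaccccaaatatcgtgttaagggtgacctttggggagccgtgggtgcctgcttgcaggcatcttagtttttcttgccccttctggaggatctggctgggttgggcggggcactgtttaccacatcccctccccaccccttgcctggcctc

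The first Il1rl1 window held 5 GATA elements, while the second window and the Il1r2 window held 1 each. At least 1 such element stood in 26.5% of the 32851 promoter windows of this length and at least 5 stood in 0.0426% of them. The cut at 5 equals the count in the first Il1rl1 window, which was shown for the large change of its gene. The share beside it is therefore not a test. No match was found in the 250 bases of Il4ra or Il21r. RefSeq windows were matched to 30 of the 37 genes, with 36 windows in all, of which 12 held the element. A STAT element, TTCNNNGAA, stood in the Il1r2 window and in 5 of the 36 windows, against 7.02% of all windows. A C/EBP element, TTGCNNAA on either strand, stood in the first Il1rl1 window and in 8 of the 36 windows, against 9.56% of all windows. These are matches of letters and not sites of binding.

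The IL-1 receptor family held both genes that rose, among 7 tested members, where 15.2% of all tested genes rose. Il1rl1 (ENSMUSG00000026069), also known as ST2, binds IL-33, an alarm cytokine released by damaged stromal cells. It was at 36.7 and 54.7 in KLHL3-KI spleen, against 6.15 and 5.60 in WT spleen, from 333 and 562 reads in KLHL3-KI and 55 and 54 reads in WT libraries. Every KLHL3-KI value lay far above every WT value, and the ratio of the group means was 7.77. These values sum all transcripts of the gene, so different forms of the receptor cannot be told apart. Its log2 fold change was 2.74 (SE 0.19, limma adjusted p = 7.92e-06). Without any 1 library it ran from 2.45 to 3.02.

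Il1r2 (ENSMUSG00000026073) binds IL-1 but lacks the signalling domain, and is known from neutrophils. Its values were 5.62 and 14.8 in KLHL3-KI spleen and 1.34 and 0.934 in WT spleen, from 51 and 152 reads in KLHL3-KI and 12 and 9 reads in WT libraries. The groups did not overlap, but the KLHL3-KI libraries differed widely from each other, with 10.2 ± 6.50 in KLHL3-KI and 1.14 ± 0.289 in WT spleen (mean ± SD, n = 2 each). The log2 fold change was 2.26 (SE 0.36, limma adjusted p = 0.00174), and it ran from 1.64 without KLHL3-KI replicate 2 to 2.89 without KLHL3-KI replicate 1. Because the gene is low, the pseudocount mattered, and a pseudocount of 5 gave 1.24 while edgeR on whole reads gave 3.16.

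The chains that work with these receptors did not pass. Il1rap, the accessory chain that Il1rl1, Il1r1 and Il1rl2 share, was at 16.5 and 18.8 in KLHL3-KI spleen and 15.2 and 12.5 in WT spleen (limma adjusted p = 0.151), with a log2 fold change of 0.33 (SE 0.15). Il1r1, the signalling receptor for IL-1, was at 41.0 and 45.7 in KLHL3-KI spleen and 38.8 and 37.7 in WT spleen (limma adjusted p = 0.292, log2 fold change 0.17, SE 0.11). For both genes the KLHL3-KI values lay above the WT values, but neither passed. The log2 fold change of Il1r1 was 0.0012 after quantile normalization, 0.0087 with equal totals and 0.097 without KLHL3-KI replicate 2, and that of Il1rap was 0.18 with equal totals and 0.20 without WT replicate 2. The IL-36 receptor Il1rl2 was at 10.5 and 10.8 in KLHL3-KI spleen, against 9.62 and 9.76 in WT spleen, and its direction turned with equal totals per library (log2 fold change -0.03).

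For IL-18, the ligand-binding chain Il18r1 was at 15.0 and 15.2 in KLHL3-KI spleen, below 21.3 and 18.7 in WT spleen (limma adjusted p = 0.0745, log2 fold change -0.38, SE 0.14). Its partner Il18rap was at 19.7 and 25.0 in KLHL3-KI spleen and 22.2 and 21.6 in WT spleen, with overlapping groups. Il1rapl1, a relative known from neurons, was under the minimum level, with 1 or 2 reads in each library.

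The 2 genes that rose lie in 1 gene cluster but are not adjacent. In the GRCm38 annotation, Il1r2, Il1r1, Il1rl2, Il1rl1, Il18r1 and Il18rap follow each other on chromosome 1 on 1 strand with no other protein-coding gene between them. The first and the fourth of these rose, and the genes between and after them did not pass. Map4k4, a kinase gene before Il1r2, was lower, at 98.1 and 98.4 in KLHL3-KI spleen and 134.3 and 139.6 in WT spleen (limma adjusted p = 0.0047). On chromosome 7, Il4ra and Il21r are adjacent and both fell, while the nearest protein-coding genes on either side, Nsmce1 and Gtf3c1, had log2 fold changes of 0.25 and -0.07 and did not pass.

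**Figure D2:**
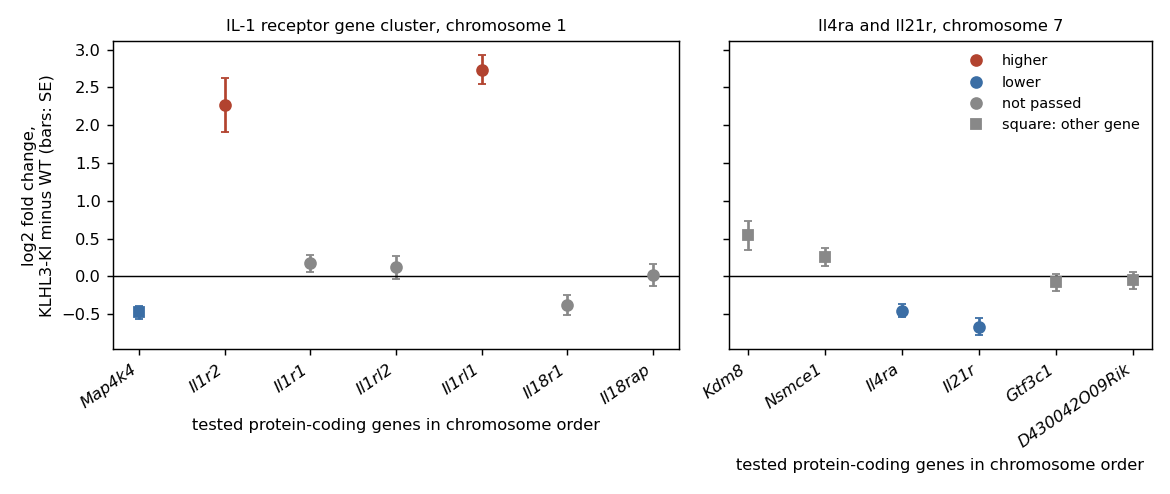
Log2 fold change (KLHL3-KI minus WT, bars are standard errors) of tested protein-coding genes in chromosome order, in the IL-1 receptor gene cluster and around Il4ra and Il21r; circles are interleukin receptor genes and squares other genes. Il1r2 and Il1rl1 are high with Il1r1 at 0.17 and Il1rl2 at 0.12 between them, and Il4ra at -0.46 and Il21r at -0.66 lie below their neighbours.

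Markers of some cell types known to carry Il1r2 or Il1rl1 are given beside these genes. The list is not complete, and T cell, monocyte and macrophage, and erythroid precursor markers are given further below. For comparison, 15.2% of all tested genes rose and 7.56% fell. All 12 neutrophil markers rose, of which Ly6g passed the minimum through its KLHL3-KI values, and their summed level was 1505 and 2049 in KLHL3-KI spleen, against 180 and 89.9 in WT spleen. Of 11 mast cell and basophil markers, 6 were tested and 3 rose, with a summed level of 90.3 and 130.4 in KLHL3-KI spleen and 69.1 and 62.1 in WT spleen.

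The 3 that rose were Hdc, the histamine-forming enzyme, and the basophil proteases Prss34 and Mcpt8, and both proteases passed the minimum only through their KLHL3-KI values. Kit, Gata2 and Cpa3 did not pass, and the defining mast cell genes Mcpt4, Tpsb2 and Cma1 and the IgE receptor genes Fcer1a and Ms4a2 were under the minimum level, though none was at 0 in every library. Of 8 eosinophil markers 5 rose, where 15.2% of all tested genes did, and Ear6 among the 5 passed the minimum through its KLHL3-KI values. The summed level of the 8 was 197 and 262 in KLHL3-KI spleen and 121 and 93.7 in WT spleen. Of 6 measured markers of group 2 innate lymphoid cells, which carry Il1rl1, 3 were tested and none passed, where 22.8% of all tested genes did. The summed level of the 6 was 34.6 and 32.1 in KLHL3-KI spleen and 39.8 and 36.7 in WT spleen. Most of that sum was Rora, at 26.8 and 26.2 in KLHL3-KI spleen and 30.1 and 27.6 in WT spleen. Areg, Calca and Arg1 were under the minimum level, so this list cannot show whether these cells changed in number. The part of these cells in the rise of Il1r2 and Il1rl1 was not tested.

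Of 8 tested genes grouped with the common gamma chain, 4 fell and none rose, where 7.56% and 15.2% of all tested genes did. This group counts Il13ra1, which pairs with Il4ra and not with the common gamma chain. Il21r (ENSMUSG00000030745), the receptor for the helper T cell cytokine IL-21, was at 69.1 and 57.1 in KLHL3-KI spleen, against 99.8 and 100.4 in WT spleen. The WT libraries were nearly equal and the KLHL3-KI libraries well below them. The log2 fold change was -0.66 (SE 0.11, limma adjusted p = 0.00251), and it passed without any 1 library, at -0.80 to -0.53.

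Il4ra (ENSMUSG00000030748), which binds IL-4 and, with Il13ra1, IL-13, was at 152 and 149 in KLHL3-KI spleen and 205 and 208 in WT spleen. Each group was tight and the groups were apart (log2 fold change -0.46, SE 0.09, limma adjusted p = 0.00503). Il13ra1 was at 26.2 and 26.4 in KLHL3-KI spleen and 27.1 and 27.3 in WT spleen and did not pass (-0.05 ± 0.11 SE, limma adjusted p = 0.806).

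Il2rb (ENSMUSG00000068227), which T and NK cells use for IL-2 and IL-15, was at 74.3 and 77.4 in KLHL3-KI spleen and 112 and 93.9 in WT spleen (log2 fold change -0.43, SE 0.11, limma adjusted p = 0.0195). Il2rg (ENSMUSG00000031304), the common gamma chain itself, was at 153 and 142 in KLHL3-KI spleen and 198 and 180.1 in WT spleen (-0.36, SE 0.10, limma adjusted p = 0.025). For both genes every KLHL3-KI value lay below every WT value. Il2rg shares exon sequence with Gm20489 on the same strand in the annotation. The data hold no values for Gm20489, so whether reads were split between them cannot be told. Il2ra, the inducible alpha chain of the IL-2 receptor that the naming rule leaves out, was low and fell too, at 5.40 and 3.70 in KLHL3-KI spleen and 9.96 and 7.47 in WT spleen (limma adjusted p = 0.0256).

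Il7r, which maintains naive T cells, was at 52.5 and 71.1 in KLHL3-KI spleen and 104 and 71.6 in WT spleen. KLHL3-KI replicate 2 and WT replicate 2 were almost level, and the gene missed the threshold (limma adjusted p = 0.0868) at a log2 fold change of -0.49 (SE 0.18). It passed without KLHL3-KI replicate 2 (-0.71, limma adjusted p = 0.00388), but was at -0.23 without WT replicate 1 (limma adjusted p = 0.484) and -0.28 without KLHL3-KI replicate 1 (limma adjusted p = 0.232). Il15ra, at 8.59 and 9.84 in KLHL3-KI spleen and 9.73 and 11.3 in WT spleen, and Il9r, at 31.6 and 27.9 in KLHL3-KI spleen and 19.6 and 31.1 in WT spleen, overlapped between groups. Il9r was at -0.07 on the log2 scale without WT replicate 1 and at 0.25 with all libraries. The decoy receptor Il13ra2 was under the minimum level.

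**Figure D3:**
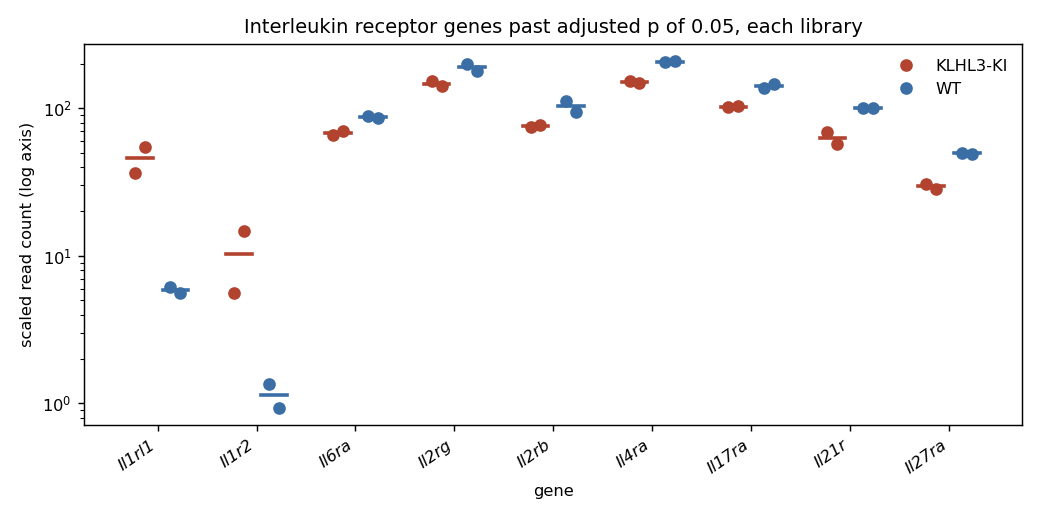
Scaled read count in each library (log axis) of the 9 interleukin receptor genes with a limma adjusted p under 0.05; points are libraries, 2 per group, and lines are group means. The KLHL3-KI points lie above the WT points for Il1rl1 and Il1r2 and below them for the other 7 genes.

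Of the 6 tested receptors of the gp130 and IL-12 type, 2 fell and none rose, where 7.56% and 15.2% of all tested genes did. Il27ra (ENSMUSG00000005465), the private chain of the receptor for IL-27, was at 30.5 and 28.5 in KLHL3-KI spleen, against 50.1 and 48.8 in WT spleen. It had the largest fall among the tested receptor genes, to 0.597 of the WT mean (log2 fold change -0.73, SE 0.11, limma adjusted p = 0.00121), and it passed without any 1 library, at -0.77 to -0.68. Palm3 overlaps it on the other strand and was at 1.98 and 3.60 in KLHL3-KI spleen and 5.15 and 3.84 in WT spleen, and whether reads were counted by strand is not stated. Il4ra, Il6ra, Il3ra, Il1rap, Il11ra1, Il12rb2 and Il17rb also overlap a gene on the other strand, and Il31ra a pseudogene on its own strand, so their values carry the same uncertainty.

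Il6ra (ENSMUSG00000027947), the IL-6 binding chain, was at 66.3 and 70.1 in KLHL3-KI spleen and 88.8 and 85.9 in WT spleen (log2 fold change -0.35, SE 0.09, limma adjusted p = 0.0255). The groups were apart. Their shared signalling partner gp130, encoded by Il6st, was at 278 and 295 in KLHL3-KI spleen and 328 and 343 in WT spleen and did not pass (-0.23, SE 0.09, limma adjusted p = 0.101).

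Il12rb2, the signalling chain of the IL-12 receptor, was at 6.50 and 6.52 in KLHL3-KI spleen and 6.94 and 7.89 in WT spleen, apart but not past the test. Its partner Il12rb1 was at 2.20 and 3.02 in KLHL3-KI spleen and 3.24 and 2.80 in WT spleen, and Il11ra1, the IL-11 receptor, at 18.8 and 17.2 in KLHL3-KI spleen and 18.7 and 18.8 in WT spleen, with overlap in both. Il31ra, which passed the minimum through its WT values, was at 0.991 and 0.779 in KLHL3-KI spleen and 1.57 and 1.35 in WT spleen. Il23r and Il11ra2 were under the minimum level. Il3ra, which pairs with the beta common chain for IL-3, was at 6.17 and 5.55 in KLHL3-KI spleen and 5.48 and 7.16 in WT spleen and overlapped.

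None of the 4 tested IL-10 type receptors passed, where 22.8% of all tested genes did. Il10ra, which carries the inhibitory IL-10 signal, was at 144 and 117 in KLHL3-KI spleen and 173 and 159 in WT spleen, close to the threshold (log2 fold change -0.35, SE 0.11, limma adjusted p = 0.0529). Without KLHL3-KI replicate 1 it passed (-0.49, limma adjusted p = 0.00476), and without KLHL3-KI replicate 2 it was at -0.21 (limma adjusted p = 0.303). The shared chain Il10rb was at 80.1 and 68.4 in KLHL3-KI spleen and 85.6 and 83.6 in WT spleen (-0.19, SE 0.11, limma adjusted p = 0.233). Il10rb shares exon sequence with Gm21970 on the same strand, for which the data hold no values either.

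Il22ra2, a secreted decoy for IL-22, was at 7.93 and 9.15 in KLHL3-KI spleen, above 6.60 and 5.81 in WT spleen, and did not pass (0.40, SE 0.18, limma adjusted p = 0.133). Il20rb, which passed the minimum through its WT values, was at 0.441 and 1.36 in KLHL3-KI spleen and 1.12 and 1.45 in WT spleen. Il22ra1 and Il20ra, the signalling chains that are known mainly from epithelia, were under the minimum level.

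Among the IL-17 receptors, Il17ra fell and the other 3 tested genes did not pass, where 7.56% of all tested genes fell. Il17ra (ENSMUSG00000002897), the chain that most IL-17 receptors share, was at 102 and 104 in KLHL3-KI spleen, against 138 and 145 in WT spleen. The 2 libraries of each group lay close together (log2 fold change -0.46, SE 0.09, limma adjusted p = 0.00605). The IL-25 partner Il17rb was at 3.52 and 2.92 in KLHL3-KI spleen and 4.36 and 4.05 in WT spleen, with the groups apart. Il17rc, the partner of Il17ra for IL-17A, was at 3.52 and 2.43 in KLHL3-KI spleen and 2.01 and 3.43 in WT spleen, and the regulator Il17rd at 9.47 and 7.21 in KLHL3-KI spleen and 9.40 and 11.3 in WT spleen, with overlap in both. Il17re was under the minimum level. The 7 receptor genes under that level had values from 0 to 0.895 and at most 8 reads in a library.

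Other settings ended some of the lower calls. With no variance trend in limma, the calls of Il17ra (adjusted p = 0.0563), Il4ra (0.0542), Il2rb (0.0938), Il2rg (0.114) and Il6ra (0.10) were all lost. The calls of Il17ra and Il4ra were lost without WT replicate 2 (limma adjusted p = 0.0749 and 0.0584), and that of Il2rb without WT replicate 1 (0.156). That of Il2rg was lost without WT replicate 1 (0.168), WT replicate 2 (0.0752) or KLHL3-KI replicate 2 (0.111). That of Il6ra was lost without WT replicate 1 (0.139), WT replicate 2 (0.118) or KLHL3-KI replicate 1 (0.0753), and with DESeq2 (adjusted p = 0.0545). In all, 4 receptor genes were lower without WT replicate 1 and 3 without WT replicate 2.

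T and B cell markers fell alongside these receptors, and most NK cell markers did not pass. For comparison, 7.56% of all tested genes fell. All 13 T cell markers fell, with a summed level of 383 and 351 in KLHL3-KI spleen against 677 and 606 in WT spleen, and a median log2 fold change of -0.77. Of 11 B cell markers 10 fell, with a summed level of 2778 and 2112 in KLHL3-KI spleen against 3649.8 and 3822 in WT spleen, and a median of -0.70. Of 8 NK cell markers 2 fell and 6 did not pass. Their summed level was 75.6 and 65.2 in KLHL3-KI spleen against 91.4 and 93.2 in WT spleen, with a median of -0.36. The 7 receptor genes that fell had log2 fold changes from -0.73 to -0.35. The part of lymphocyte numbers in these falls was not tested.

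Markers of other cell types are given for the same libraries, where 15.2% of all tested genes rose and 7.56% fell. All 12 erythroid precursor markers rose, with a summed level of 6686 and 7618 in KLHL3-KI spleen against 1729 and 1385 in WT spleen, and all 10 megakaryocyte and platelet markers rose, with 564 and 741 in KLHL3-KI spleen against 266 and 262 in WT spleen. Of 12 monocyte and macrophage markers 6 rose and 1 fell, with 3134 and 3539 in KLHL3-KI spleen against 2714 and 2451 in WT spleen. Of 8 dendritic cell markers 3 fell, with 270.2 and 261 in KLHL3-KI spleen against 326 and 294 in WT spleen, and of 12 stromal and endothelial markers 3 fell, with 906 and 761 in KLHL3-KI spleen against 1030.4 and 1039.6 in WT spleen. None of the measured markers in any list was at 0 in all libraries. Nmur1, listed for group 2 innate lymphoid cells, had no entry in the data.

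**Figure D4:**
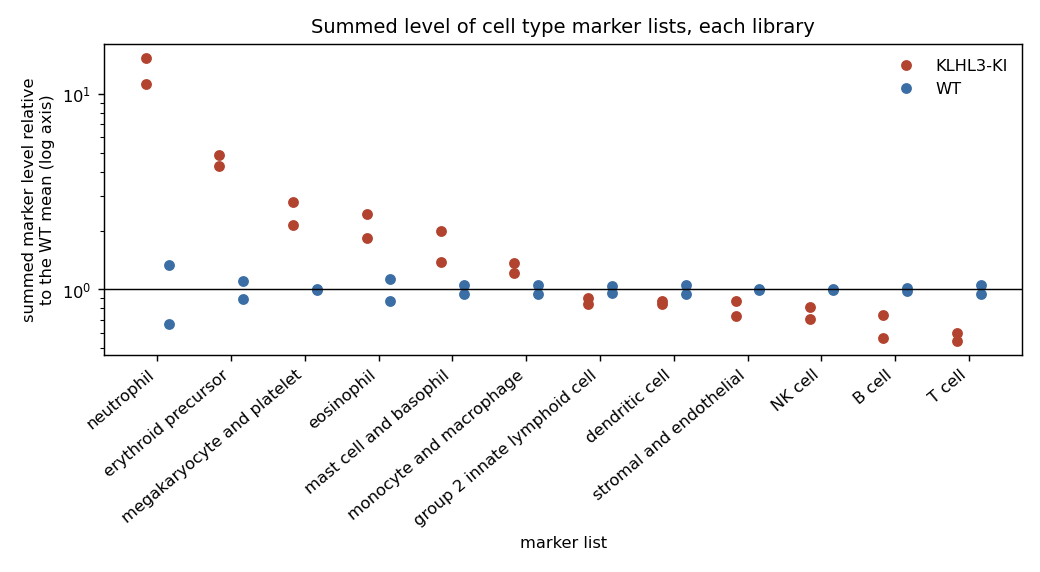
Summed level of each cell type marker list in each library, divided by the WT mean of that list (log axis); points are libraries, 2 per group. The neutrophil sum in KLHL3-KI spleen was 13.2 times and the erythroid sum 4.59 times the WT mean, while the T cell sum was 0.573 and the B cell sum 0.654 of it.

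Levels of different receptor genes were compared per kilobase of exon, using lengths from the GENCODE M21 annotation. In KLHL3-KI spleen Il2rg stood first at 64.1 and 59.3 per kilobase, then Il10ra at 41.0 and 33.5 and Il4ra at 25.4 and 24.8, each apart from the next, while Il10rb, Il21r and Il2rb overlapped below them. In WT spleen Il2rg was at 83.1 and 75.4 per kilobase, Il10ra at 49.4 and 45.4, Il4ra at 34.2 and 34.7, and Il21r at 30.0 and 30.2, and the libraries of each were apart from those of the next. Below these in WT spleen, Il2rb, Il10rb and Il7r overlapped their neighbours in the order. Il1rl1 was rank 13 of 37 in KLHL3-KI spleen, at 5.32 and 7.94 per kilobase, and rank 26 in WT spleen, at 0.893 and 0.813. Il1r2 was rank 15 in KLHL3-KI spleen and rank 28 in WT spleen.

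Per kilobase, Il1rl1 exceeded its accessory chain Il1rap in both KLHL3-KI libraries, where Il1rap was at 1.45 and 1.65, and stood below it in both WT libraries, where Il1rap was at 1.34 and 1.10. The values of both genes sum all their transcripts. The genes ranked 1 to 10 in KLHL3-KI spleen were those ranked 1 to 10 in WT spleen, with Il10rb above Il21r and Il2rb in KLHL3-KI spleen and below them in WT spleen.

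**Figure D5:**
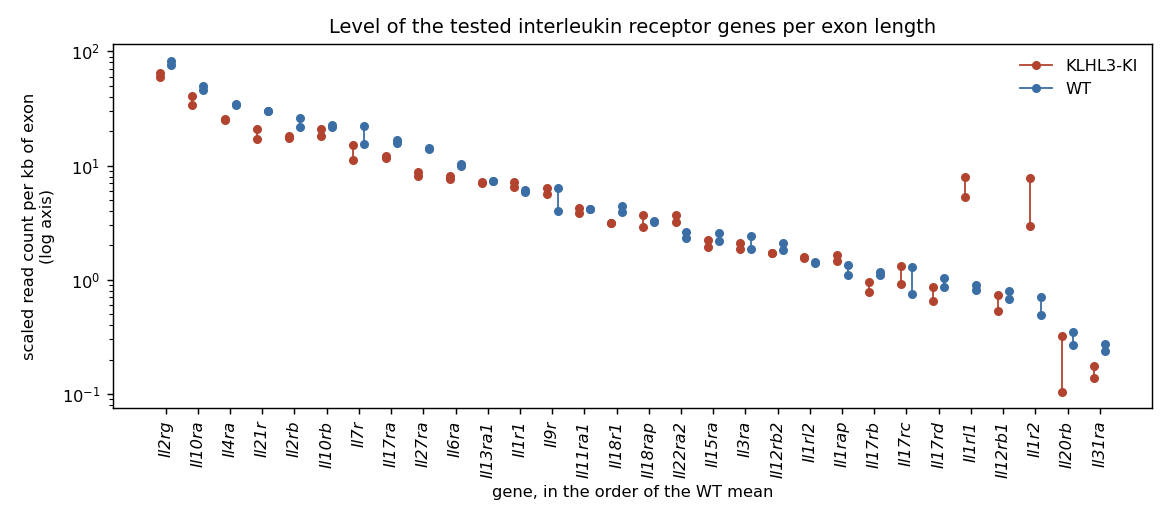
Scaled read count per kilobase of exon (log axis) of the 30 tested interleukin receptor genes, in the order of their WT mean; points are libraries, joined within each group. Il2rg is highest in both groups, and Il1rl1 and Il1r2 are the genes whose KLHL3-KI points lie far above their WT points.

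Genes that work with these receptors were counted in 5 lists, in which 10 of 74 tested genes (13.5%) rose and 9 (12.2%) fell, where 15.2% and 7.56% of all tested genes did, and 9 rose and 18 fell after quantile normalization or with equal totals. Without 1 library, 3 fell without WT replicate 1, 2 without WT replicate 2 and 5 without KLHL3-KI replicate 2. Of 18 shared and related receptor chains, 4 rose and 1 fell, with a median log2 fold change of 0.03. This list overlaps the marker lists above, and Epor is also counted among the erythroid precursor markers. The erythropoietin receptor Epor was at 54.1 and 68.7 in KLHL3-KI spleen and 11.9 and 7.16 in WT spleen (2.60, SE 0.21, limma adjusted p = 2.12e-05). The G-CSF receptor Csf3r, at 70.6 and 85.7 in KLHL3-KI spleen and 27.6 and 26.3 in WT spleen, and the oncostatin M receptor Osmr also rose, by 1.50 and 0.91 on the log2 scale. Osmr pairs with Il31ra for IL-31. Sigirr, an inhibitory member of the IL-1 receptor family, fell by 0.58 (limma adjusted p = 0.0491). Csf2rb, the beta common chain, was at 96.1 and 117 in KLHL3-KI spleen and 93.0 and 91.9 in WT spleen and did not pass.

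Of 11 JAK and STAT genes, 2 fell and none rose (median -0.13). Stat2 was at 59.9 and 62.4 in KLHL3-KI spleen and 91.4 and 80.6 in WT spleen (-0.48, limma adjusted p = 0.00874), and the kinase Tyk2 at 53.3 and 58.7 in KLHL3-KI spleen and 70.8 and 75.1 in WT spleen (-0.38, limma adjusted p = 0.0263). Of 16 genes listed as inhibitors of cytokine signalling, 3 rose and 2 fell (median -0.00061). The feedback inhibitors Socs3 and Cish, which STAT factors are known to induce, rose by 0.84 and 0.81. Ptpn11, named after its values were seen, rose by 0.30, at the edge of the threshold (limma adjusted p = 0.0495). The phosphatase Ptpn6 and the adaptor Sh2b3 fell by 0.43 and 0.42.

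Of 14 adaptors and kinases of TIR and IL-17 receptors, 1 rose and 3 fell (median -0.08). Tab3, a subunit of the TAK1 kinase complex, was at 64.8 and 74.7 in KLHL3-KI spleen and 30.8 and 29.4 in WT spleen (1.18, SE 0.11, limma adjusted p = 6.45e-05). Traf3ip2, the adaptor that binds Il17ra, fell by 0.66, Traf5 by 0.56 and Traf3 by 0.56. Myd88 was at 40.6 and 49.5 in KLHL3-KI spleen and 43.0 and 43.2 in WT spleen and did not pass.

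Of 36 genes listed as interleukin ligands, 21 were measured and 15 tested, and 2 rose and 1 fell (median -0.09). Il2, Il3, Il5, Il9 and Il13 were among those without an entry in the data. The list counts Il18bp, a binding protein of IL-18 and not a receptor ligand, which did not pass (-0.13, limma adjusted p = 0.475). Il1b, which Il1r1 and Il1r2 bind, was at 67.1 and 61.5 in KLHL3-KI spleen and 20.8 and 16.4 in WT spleen (1.74, SE 0.13, limma adjusted p = 1.72e-05). Il1f9, an IL-36 ligand of Il1rl2, rose by 1.38 from few reads, and Il16 fell by 0.42. Il33, the ligand of Il1rl1, was at 9.25 and 7.79 in KLHL3-KI spleen and 9.96 and 10.8 in WT spleen and did not pass (-0.26, SE 0.17, limma adjusted p = 0.293). Il7, the ligand of Il7r, was at 5.07 and 3.60 in KLHL3-KI spleen and 8.73 and 6.44 in WT spleen, close to the threshold (limma adjusted p = 0.0505).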

How the data were processed

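RNA sequencing libraries of 4 mouse spleen samples were grouped by their titles into KLHL3-KI and WT, 2 each. The submitters' column names leave a number unused in each group, and the labels do not say why. Per the submitters' processing notes, Trimmomatic 0.38, Bowtie2, RSEM 1.3.0 and edgeR were used with build GRCm39; the notes used here do not state their order, the annotation, any filter or whether counting used strand. The deposited table of the authors holds a scaled read count (a normalized signal) per Ensembl gene. Every value (100% within 0.001 of a read) was a whole multiple of the smallest of its library, so whole reads were recovered, from 8535483 to 10933023 per library, which with n = 2 per group limit the precision.

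Symbols came from the GENCODE M21 names (23605 of 23763 genes). Genes with a mean of at least 1 were compared on log2(value + 1) with limma 3.58.1 in R 4.3.3 (mean-variance trend, two-sided, Benjamini-Hochberg); 6793 were under that mean. An exact test of 2 against 2 cannot go below p = 0.333, so none was used. Whole reads were tested with edgeR 4.0.16 and DESeq2 1.42.0 as alternatives. All fits were tested on simulated data. Further alternatives were pseudocounts, filters, scalings, variance models, a replicate block and leaving out each library. The receptor genes, gene lists and markers were chosen with earlier results of these data known. Per-library values are given for receptor genes that passed or had a mean of at least 20, by rule, and for the others besides; of each list, up to 4 passing genes with the lowest p and partners of a receptor are named. Genes under the minimum are given by their range. One gene counted among the related receptor chains is not reported here by name.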

Additional observations from a re-analysis of the deposited data

How the results depend on the processing

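The rises of Il1rl1 and Il1r2 and the falls of Il27ra and Il21r passed under all alternatives run. The count of receptor genes that were lower, 7, was 11 with equal totals per library and 2 with no variance trend, and ran from 3 to 7 when 1 library was left out. Over all tested genes, the lower count was 2372 after quantile normalization, 3130 with equal totals, 781 with DESeq2, 659 with no variance trend and 1991 at an adjusted p under 0.1, and ran from 267 to 1627 without 1 library (267 without WT replicate 2, 472 without WT replicate 1, 786 without KLHL3-KI replicate 2), where the higher count ran from 1386 to 2903 (1386 without WT replicate 2, 1714 without WT replicate 1). Over the 5 lists of related genes, the lower count was 18 after quantile normalization, 18 with equal totals and 2 with no variance trend, and ran from 2 to 10 without 1 library. With a replicate block, 2 receptor genes were higher and 9 lower, and Il7r and Il10ra passed. The replicate numbers are those of the titles, which do not say that a number marks a shared animal or day. In the submitters' column names the libraries called replicate 1 here carry different numbers in KLHL3-KI and WT. The numbers were therefore not taken as pairs. The deviations of same-numbered libraries correlated at -0.03 across genes, which cannot decide whether libraries were paired. With equal totals, the log2 fold change turned to -0.031 for Il1rl2, -0.14 for Il18rap and -0.014 for Il17rc, and after quantile normalization to -0.10 for Il18rap. Without 1 library it ran from -0.33 to 0.00058 for Il12rb1, -0.11 to 0.0071 for Il11ra1, -0.66 to 0.052 for Il20rb, -0.25 to 0.080 for Il3ra, -0.067 to 0.58 for Il9r, -0.17 to 0.39 for Il17rc and -0.14 to 0.19 for Il18rap. None of these 8 genes passed in any alternative run. The cause of these changes was not tested. Depth limits the genes with few reads, such as Il1r2 in WT libraries.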
